A study of Mus musculus with 14 samples.

Results

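The genes described here belong to 3 forms of regulated cell death: necroptosis (Ripk1, Ripk3 and Mlkl), pyroptosis (Gsdmd, Casp1 and Casp4) and apoptosis (Casp8 and Bcl2a1a). They were chosen by name, 8 genes in all, and 7 of them are among the 13866 genes of the count table. The expression of Casp1 was not analysed here. Each of the 14 libraries was made from brain RNA of a single mouse aged 19 days. WT mice were C57BL/6JOlaHsd mice and received either phosphate buffered saline (WT + PBS, 3 libraries) or CBE (WT + CBE, 3 libraries). MyTrMaSt null mice, which were made deficient in the innate immune adaptors MyD88, TRIF (Ticam1), MAVS and STING (Tmem173), received the same injections (MyTrMaSt + PBS, 3 libraries, and MyTrMaSt + CBE, 5 libraries). CBE, conduritol B-epoxide, irreversibly inhibits acid beta-glucosidase, the lysosomal enzyme deficient in Gaucher disease, and was injected intraperitoneally every day at 100 mg/kg body weight. CBE is a chemical model that acts on the enzyme in the whole animal rather than in a chosen cell type, and whether the MyTrMaSt null line shares the strain background of the WT mice was not given in the sources used here.

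In necroptosis, RIPK1 and RIPK3 assemble through shared interaction motifs, RIPK3 phosphorylates the pseudokinase MLKL, and MLKL then permeabilizes the plasma membrane. In pyroptosis, the inflammatory caspases cleave gasdermin D, whose released fragment forms membrane pores. The product of mouse Casp4 responds to bacterial lipopolysaccharide in the cytosol, and the product of Casp1 is activated by inflammasomes. Caspase 8 starts apoptosis downstream of death receptors and also cuts RIPK1 and RIPK3, which restrains necroptosis, whereas Bcl2a1a encodes A1, a BCL2 family protein that inhibits mitochondrial apoptosis. In the brain, several of these genes are expressed mainly by microglia and other myeloid cells, and a number of them are known to respond to interferon.

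In WT mice, CBE was accompanied by higher levels of most of these genes. Gsdmd rose from 7.25 ± 4.21 to 23.4 ± 3.44 CPM (read counts scaled to a common library size, mean ± SD, n = 3 and 3), Casp8 from 3.50 ± 0.864 to 8.96 ± 1.33 CPM and Bcl2a1a from no counts at all to 6.45 ± 2.12 CPM. Ripk3, Mlkl and Casp4, which had at most 1 count in any WT + PBS library, had 3 to 21 counts in every WT + CBE library. Ripk1 did not pass the test, and Gsdmd and Casp8 did not pass when a marker of the sex of the mice was added to the model. In MyTrMaSt null mice none of the tested members passed, and after CBE Gsdmd and Bcl2a1a were lower in MyTrMaSt null than in WT mice. The difference between the genotypes in the change with CBE was not called for any member.

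Library totals ran from 1290616 counts (WT + PBS replicate 1) to 3704691 counts (MyTrMaSt + PBS replicate 2), so that 1 count corresponded to between 0.264 and 0.902 CPM. CPM were computed on library sizes scaled by the TMM method, and intervals and floors given below cover counting error only. The library of WT + PBS replicate 1 stood apart. Its chi-square per degree of freedom against the rest of its group was 20.2 and 18.1, compared with 2.31 to 7.20 for all other pairs of libraries of 1 group. Xist, transcribed from the inactive X chromosome, was not detected in WT + PBS, had 47, 1 and 30 counts in WT + CBE, 32 to 46 in MyTrMaSt + PBS and 0 to 39 in MyTrMaSt + CBE, so the groups also differed in the sex of the mice. The 4 deleted genes still gave counts in the MyTrMaSt null libraries, with 9 to 17 for Myd88 in MyTrMaSt + PBS against 19 to 36 in WT + PBS, and 18 to 20 against 1 to 9 for Tmem173. Reads outside a deleted part do not check the labels, and where the deletions lie was not analysed here.

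Microglia markers other than P2ry12 had higher mean levels after CBE in both genotypes. The mean of P2ry12 was 22.5 CPM after PBS and 25.6 CPM after CBE in WT mice, and 41.4 and 29.5 CPM in MyTrMaSt null mice. The summed level of 7 markers (Cx3cr1, P2ry12, Tmem119, Csf1r, C1qa, C1qb and Aif1) was 443 to 713 CPM after PBS and 2272 to 2726 CPM after CBE in WT mice, and 364 to 395 and 1224 to 1438 CPM in MyTrMaSt null mice. C1qa and C1qb made up most of the sum after CBE, with means of 1294 and 857 CPM in WT + CBE and 609 and 458 CPM in MyTrMaSt + CBE. Without them the sum was 161 to 170 CPM after PBS and 345 to 425 CPM after CBE in WT mice. In MyTrMaSt null mice it was 151 to 179 and 232 to 279 CPM. In each genotype 4 of the 7 markers were called higher after CBE, and 2 of the 7 were called lower in MyTrMaSt + CBE than in WT + CBE. Of 5 markers of infiltrating myeloid cells 1 is among the listed genes, at no more than 2.84 CPM, and of 3 T cell markers 1 is listed, at no more than 1.75 CPM. In homogenized tissue, more cells of a type and more RNA per cell cannot be told apart. Markers of other brain cells also differed with CBE. The summed level of 4 astrocyte markers was 730 to 876 CPM after PBS and 1756 to 1898 CPM after CBE in WT mice, and 788 to 900 and 1438 to 1705 CPM in MyTrMaSt null mice, with 2 of the 4 called higher in WT mice and 1 in MyTrMaSt null mice. The summed level of 4 oligodendrocyte markers was 14355 to 16565 CPM after PBS and 8926 to 11537 CPM after CBE in WT mice, and 14919 to 17419 and 10732 to 14812 CPM in MyTrMaSt null mice, and none of the 4 reached a 2-fold difference. For 4 neuron markers it was 2315 to 3455 and 2542 to 2778 CPM in WT mice and 3459 to 4315 and 2744 to 3150 CPM in MyTrMaSt null mice, and none of these reached 2-fold either. The low end in WT + PBS is replicate 1, which stood apart, and the median of that group, 3429 CPM, was above every WT + CBE library. The part of RNA from these cells in the differences below was not tested, except for the levels per microglia marker given further on.

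Positions are those of GRCm38 (mm10), from the GENCODE annotation. Ripk1 (ENSMUSG00000021408) lies on chromosome 13 at chr13:34002363-34037147, and its exons overlap Serpinb6a on the opposite strand and Gm17084 on the same strand, so reads may have been shared with these genes. Ripk3 (ENSMUSG00000022221) lies at chr14:55784995-55788865, Mlkl (ENSMUSG00000012519) at chr8:111311797-111338177, Gsdmd (ENSMUSG00000022575) at chr15:75862327-75867408, Casp4 (ENSMUSG00000033538) at chr9:5308828-5336783 and Casp8 (ENSMUSG00000026029) at chr1:58795374-58847503. None of these 5 genes shares exonic sequence with an annotated neighbour. Bcl2a1a (ENSMUSG00000102037) lies at chr9:88956900-88962419 and has near-identical copies. Within the last 500 bases of its transcript, which a 3′ end library reads, 66.7% of the stretches of 50 bases also occur in Bcl2a1d and 45.2% in Bcl2a1b. Since only uniquely mapping reads were kept, reads from these shared stretches may have been dropped, so that Bcl2a1a counts may be too low. Whether counts were also mixed between the copies was not tested.

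Promoter windows from 250 bases before to 50 bases after the transcription start were read from the RefSeq table for GRCm38.p6, which matched 7 of the 8 members with 9 windows in all (Gsdmd has none). Both strands were searched for the core of the interferon-stimulated response element (GAAA, any 2 bases, GAAA), which binds the interferon-activated ISGF3 complex and IRF factors, and for the gamma-activated site, TTCNNNGAA, which binds STAT dimers. Of all 32851 RefSeq windows, 3.44% held the former and 8.3% the latter. Of the 9 member windows 1 held a match, the downstream start of Ripk1, with 1 response element core beginning 5 bases before the start and 2 gamma-activated sites beginning 108 and 11 bases before it, the last of which overlaps the core. That window is shown with those of Ripk3, Mlkl and Casp4, which like Bcl2a1a were nearly absent without CBE. The windows are printed 5′ to 3′ on the strand of the gene, at chr13:34002624-34002923 (plus), chr14:55788808-55789107 (minus), chr8:111338156-111338455 (minus) and chr9:5308599-5308898 (plus), and capitals mark the motif matches.
Ripk1: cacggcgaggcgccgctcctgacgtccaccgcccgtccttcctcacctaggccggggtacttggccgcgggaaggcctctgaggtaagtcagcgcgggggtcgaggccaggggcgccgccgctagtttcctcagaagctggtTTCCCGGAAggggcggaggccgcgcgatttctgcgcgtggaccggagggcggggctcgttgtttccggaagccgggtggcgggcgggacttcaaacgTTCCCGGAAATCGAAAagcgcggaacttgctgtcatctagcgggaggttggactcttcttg
Ripk3: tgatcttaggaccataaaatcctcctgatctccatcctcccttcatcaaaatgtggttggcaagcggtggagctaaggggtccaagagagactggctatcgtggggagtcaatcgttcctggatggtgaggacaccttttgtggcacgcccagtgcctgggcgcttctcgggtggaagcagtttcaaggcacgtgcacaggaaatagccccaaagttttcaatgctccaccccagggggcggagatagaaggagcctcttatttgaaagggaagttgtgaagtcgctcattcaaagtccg
Mlkl: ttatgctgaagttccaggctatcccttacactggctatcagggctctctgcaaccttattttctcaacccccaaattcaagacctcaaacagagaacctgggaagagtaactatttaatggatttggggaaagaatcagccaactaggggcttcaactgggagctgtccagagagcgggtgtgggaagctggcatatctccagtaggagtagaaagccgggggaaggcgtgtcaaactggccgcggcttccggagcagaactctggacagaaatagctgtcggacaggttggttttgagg
Casp4: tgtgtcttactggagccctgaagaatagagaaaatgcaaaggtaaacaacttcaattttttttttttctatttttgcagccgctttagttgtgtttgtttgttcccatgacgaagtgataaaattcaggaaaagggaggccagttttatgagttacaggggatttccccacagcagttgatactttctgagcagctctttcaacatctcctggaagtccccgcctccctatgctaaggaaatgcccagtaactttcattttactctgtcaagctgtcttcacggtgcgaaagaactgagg
The 3 windows without capitals hold neither string, which says only that these letters are not in them. A match is a string of letters and not a measured binding site.

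Differences were tested on the counts by the edgeR quasi-likelihood F test, with p values adjusted by Benjamini-Hochberg over the 11852 genes that passed a filter on low counts. Calls required both a difference of 2-fold or more and an adjusted p below 0.05. Of the 7 listed members, Ripk1, Gsdmd, Casp8 and Bcl2a1a passed the filter. Ripk3, Mlkl and Casp4 did not, and their tests come from the same model fitted to all 13866 listed genes. Bcl2a1a passed the filter only through its level in WT + CBE, so that the counts of called members below describe the members and support nothing beyond that.

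Of the necroptosis genes, Ripk1, the kinase that acts downstream of TNF receptor 1, varied as much within groups as between them. Its counts were 1, 12 and 6 in WT + PBS, 28, 5 and 8 in WT + CBE, then 6, 14 and 16 in MyTrMaSt + PBS and 9, 12, 16, 9 and 5 in MyTrMaSt + CBE. The group means were 2.25 ± 1.23, 5.10 ± 2.91, 3.80 ± 1.78 and 4.18 ± 1.65 CPM (SD, n = 3, 3, 3 and 5), and every group overlapped every other. The log2 fold change with CBE in WT mice was 1.05 (SE 0.53, adjusted p = 0.236), with a 95% interval of -0.07 to 2.16. The high value of Ripk1 in WT + CBE comes from replicate 1, at 8.15 CPM, against 2.35 and 4.82 CPM in the other libraries.

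Ripk3, the kinase that activates MLKL, was close to the detection limit without CBE. It had 0, 1 and 0 counts in WT + PBS and 10, 6 and 5 counts in WT + CBE, which correspond to 2.91, 2.82 and 3.01 CPM. MyTrMaSt + PBS libraries had 1, 1 and 2 counts, and MyTrMaSt + CBE libraries 3, 3, 4, 2 and 5 counts, or 0.985 to 1.96 CPM. The PBS groups overlapped each other, MyTrMaSt + CBE lay above both and WT + CBE lay above all other libraries. In WT mice the summed counts gave a ratio of 20.6 (95% counting interval 3.32 to 853, from 1 count in WT + PBS), and the change passed the edgeR test on all listed genes (adjusted p = 0.00162). Without WT + PBS replicate 2, which holds that count, the increase was at least 3.37-fold against a floor of 3 counts over the group, and without replicate 3 the ratio was 13.7.

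Mlkl, the executioner of necroptosis, was detected mainly in WT + CBE. It had no counts in WT + PBS, 6, 6 and 3 counts in WT + CBE, 0, 2 and 2 counts in MyTrMaSt + PBS, and 0, 0, 0, 1 and 0 counts in MyTrMaSt + CBE. The lowest WT + CBE library, at 1.75 CPM, was above every library of the other groups, of which the highest reached 0.704 CPM. Against a floor of 3 counts over the WT + PBS group, the increase of Mlkl with CBE in WT mice was at least 4.91-fold (edgeR on all listed genes, adjusted p = 0.0114). A total of 15 counts in WT + CBE stands behind this value, and with only the WT groups in the edgeR fit Mlkl was no longer called (adjusted p = 0.0547). The bound was 2.41-fold without WT + PBS replicate 2 and 3.27-fold without replicate 3, since the floor of 3 counts then stands for fewer reads.

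Gsdmd, which encodes the pore-forming substrate of the inflammatory caspases, had 13, 24 and 8 counts in WT + PBS (11.7, 6.63 and 3.37 CPM) and 94, 45 and 36 counts in WT + CBE (27.3, 21.1 and 21.7 CPM). In MyTrMaSt + PBS it had 15, 18 and 14 counts (5.18, 4.76 and 4.93 CPM), and in MyTrMaSt + CBE 17, 13, 19, 8 and 29 counts (6.62, 4.88, 7.70, 3.94 and 11.4 CPM). The 3 WT + CBE libraries were above all 11 others, which overlapped. In WT mice the log2 fold change with CBE was 1.85 (SE 0.35, adjusted p = 0.00189 by the edgeR test). Without WT + PBS replicate 1, the highest of its group, it was 2.18 (adjusted p = 9.02e-05), and with the level of Xist in the model it was 1.52 and not called (adjusted p = 0.0771).

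Casp4, the inflammatory caspase of the non-canonical inflammasome, had no counts in WT + PBS and 21, 5 and 5 counts in WT + CBE (6.11, 2.35 and 3.01 CPM). MyTrMaSt + PBS libraries had 0, 1 and 0 counts and MyTrMaSt + CBE libraries 2, 1, 2, 3 and 4 counts (0.376 to 1.57 CPM). All MyTrMaSt + CBE libraries lay above the PBS libraries of either genotype and below all WT + CBE libraries. Against the floor of 3 counts, the increase of Casp4 with CBE in WT mice was at least 10.1-fold (edgeR on all listed genes, adjusted p = 0.000992). The bound was 6.24-fold without WT + CBE replicate 1, 4.97-fold without WT + PBS replicate 2 and 6.76-fold without WT + PBS replicate 3.

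Casp8, the initiator caspase of the extrinsic pathway, was detected in every library. Its counts were 3, 16 and 8 in WT + PBS (2.71, 4.42 and 3.37 CPM), 36, 17 and 14 in WT + CBE (10.5, 7.98 and 8.44 CPM), 12, 18 and 13 in MyTrMaSt + PBS (4.14, 4.76 and 4.58 CPM) and 11, 14, 12, 8 and 14 in MyTrMaSt + CBE (4.29, 5.26, 4.86, 3.94 and 5.48 CPM). WT + CBE was above the rest and the other groups overlapped. The log2 fold change with CBE in WT mice was 1.28 (SE 0.29, adjusted p = 0.00715 by the edgeR test). Without WT + CBE replicate 1 it was 1.13 and no longer passed (adjusted p = 0.0536), whereas without WT + PBS replicate 1 it was 1.20 (adjusted p = 0.0138). With only the WT groups in the edgeR fit Casp8 was 1.29 higher and was not called either (adjusted p = 0.0703).

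Bcl2a1a, which encodes the antiapoptotic protein A1, had no counts in WT + PBS and 23, 9 and 14 counts in WT + CBE (6.69, 4.22 and 8.44 CPM). It had 1 count in each MyTrMaSt + PBS library, and 5, 4, 4, 3 and 1 counts in MyTrMaSt + CBE (0.391 to 1.95 CPM). The CBE groups did not overlap with each other or with their PBS groups, although MyTrMaSt + CBE replicate 5, with 1 count, exceeded the MyTrMaSt + PBS libraries only through its smaller library. Against the floor of 3 counts, the increase of Bcl2a1a with CBE in WT mice was at least 15.1-fold (adjusted p = 4.01e-05 by the edgeR test), a bound of 7.38-fold without WT + PBS replicate 2 and 10.03-fold without replicate 3.

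**Figure D1:**
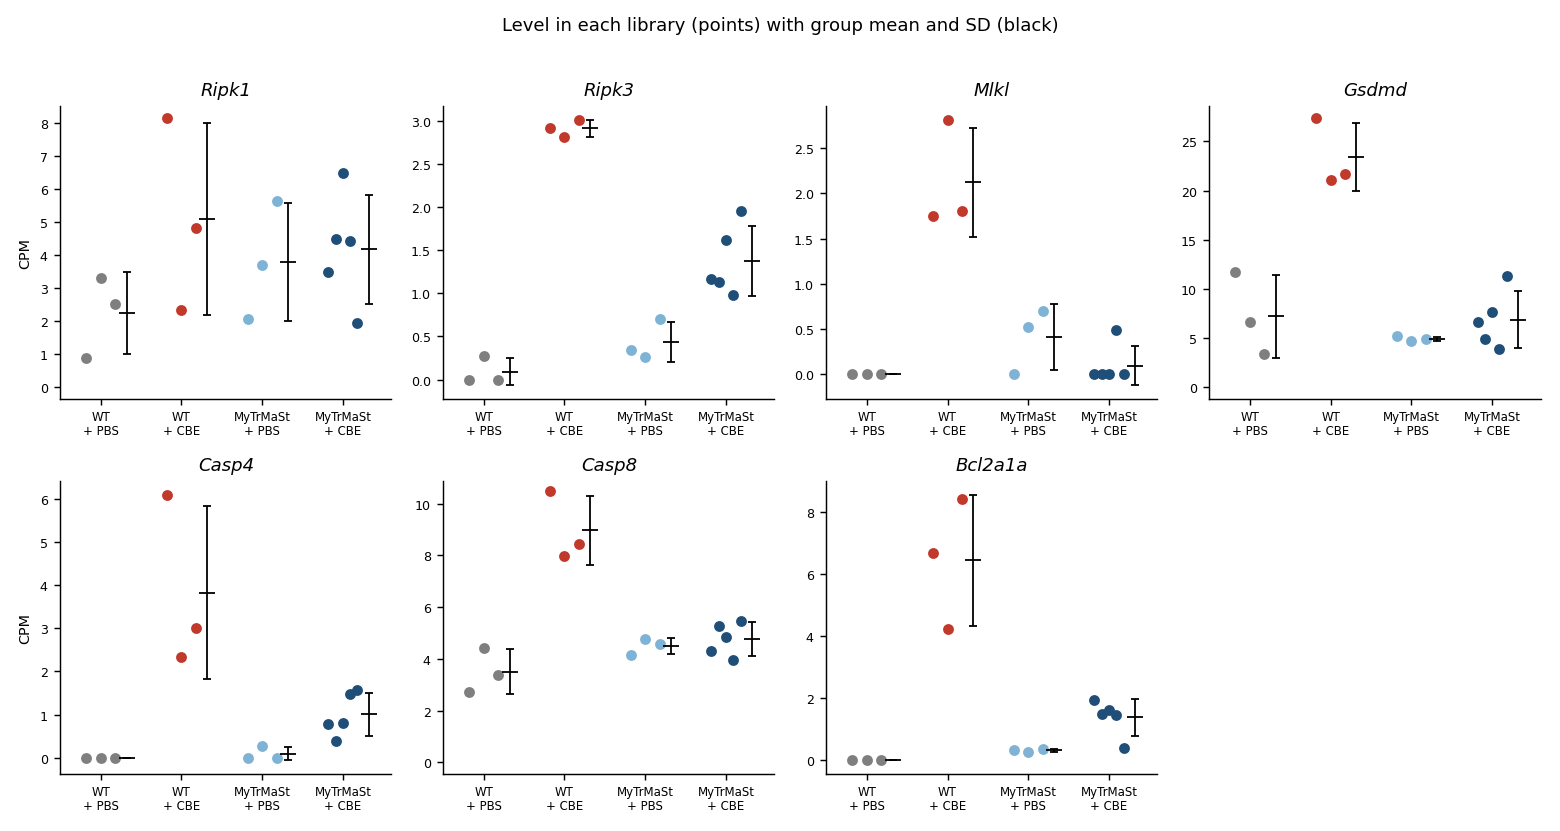
Level of the 7 listed members in each library, in CPM on a linear axis that differs between panels, with 1 point per mouse and the mean and SD of each group in black. The 3 WT + CBE libraries lie above all other libraries for every member except Ripk1, whose groups overlap.

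The change with CBE in WT mice was called, as higher, for 3 of the 4 tested members (Gsdmd, Casp8 and Bcl2a1a), in a comparison that called 6.4% of all tested genes in either direction and 5.2% as higher. In the fit to all listed genes 6 of the 7 members were called, all higher, against 5.96% of genes in either direction and 4.93% as higher. The WT + CBE libraries were above all WT + PBS libraries for 6 of 7 members, and for 15.1% of all tested genes. That share, like the other shares without overlap given below, covers only genes above the filter, and so not Ripk3, Mlkl or Casp4. Sex differed in part between these groups. With the log2 CPM of Xist added to the model, Gsdmd, as given above, and Casp8 (log2 fold change 1.03, adjusted p = 0.183) no longer passed, whereas Bcl2a1a (adjusted p = 0.00245) and, in the fit to all listed genes, Ripk3 (0.0297), Mlkl (0.0218) and Casp4 (0.0235) did. Compared with the WT + PBS libraries, the WT + CBE library with 1 Xist count alone still passed for Bcl2a1a (adjusted p = 0.00446) and Ripk3 (adjusted p = 0.0435), with the spread of a single library taken from the other groups. In the same comparison Gsdmd was 1.68 higher on the log2 scale (adjusted p = 0.101), Casp8 1.09 higher (adjusted p = 0.227), and Mlkl and Casp4 had adjusted p values of 0.0601 and 0.0569.

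In MyTrMaSt null mice, the comparison of CBE with PBS shows how the genes behaved without the 4 adaptors. None of the 4 tested members was called, where 3.89% of all tested genes were, and none of the 3 members below the filter, where 3.35% of all listed genes were. In the edgeR fit to all listed genes 3 of the 7 (Bcl2a1a, Ripk3 and Casp4) had an unadjusted p below 0.05, as did 3083 of the 13866 genes, and DESeq2 called none of the 4 tested members. The log2 fold change of Gsdmd was 0.49 (SE 0.35, 95% interval -0.25 to 1.23, adjusted p = 0.429), that of Casp8 0.09 (SE 0.26, interval -0.45 to 0.63, adjusted p = 0.888) and that of Ripk1 0.13 (SE 0.43, interval -0.78 to 1.05, adjusted p = 0.890). The upper limits for Casp8 and Ripk1 leave room for changes of 0.63 and 1.05 on the log2 scale.

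Some members with few counts were nevertheless separated between CBE and PBS in MyTrMaSt null mice. The ratio of summed counts was 4.39 for Bcl2a1a (95% counting interval 1.27 to 23.4, adjusted p = 0.0847 by the edgeR test), 3.29 for Ripk3 (1.07 to 13.5, adjusted p = 0.127 on all listed genes) and 9.30 for Casp4 (1.38 to 398, from 1 count in MyTrMaSt + PBS, adjusted p = 0.107, and at least 1.87 without replicate 2, which holds that count). For each of these 3 genes all 5 CBE libraries were above all 3 PBS libraries, as was the case for 11.8% of all tested genes. For Ripk3 and Casp4 the two-sided exact permutation test gave p = 0.0357, the smallest possible with 5 and 3 libraries, and 0.0857 after adjustment over 12 such tests on the members below the filter. Without MyTrMaSt + CBE replicate 5, Bcl2a1a passed (log2 fold change 2.22, adjusted p = 0.0463). Mlkl had a ratio of 0.194 (0.00393 to 1.96), with 1 count in 5 CBE libraries and 4 counts in 3 PBS libraries. Without MyTrMaSt + CBE replicate 4 it was at least 1.44-fold lower against the floor, and without MyTrMaSt + PBS replicate 2 or 3 no ratio could be given.

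Between the CBE groups, 2 of the 4 tested members were called, both lower in MyTrMaSt + CBE than in WT + CBE, where 2.01% of all tested genes were called in either direction and 1.93% as lower. These were Gsdmd (log2 fold change -1.76, SE 0.29, adjusted p = 0.00117) and Bcl2a1a (-2.17, SE 0.39, adjusted p = 0.0032). Casp8 was lower by less than 2-fold (-0.92, SE 0.24, adjusted p = 0.0482), and Ripk1 overlapped (-0.38, SE 0.43, adjusted p = 1.0). In the fit to all listed genes, which called 1.88% of them in either direction and 1.8% as lower, Mlkl was called lower (ratio of summed counts 0.0392, 95% counting interval 0.000932 to 0.255, adjusted p = 0.0169). Casp4 (ratio 0.228, 0.107 to 0.456, adjusted p = 0.0572) and Ripk3 (0.476, 0.236 to 0.948, adjusted p = 0.435) were not called. Casp4 was called lower when only the CBE groups were fitted (log2 fold change -2.01, adjusted p = 0.0405) and without WT + PBS replicate 1 (-2.01, adjusted p = 0.0346), and its ratio was 0.370 without WT + CBE replicate 1. Without MyTrMaSt + CBE replicate 4, which holds the only Mlkl count of its group, Mlkl was at least 7.09-fold lower against the floor of 3 counts. The call for Mlkl was lost when WT + CBE replicate 1 or 2, or MyTrMaSt + CBE replicate 1, 2, 3 or 5, was left out, with adjusted p values from 0.0501 to 0.0916. All members except Ripk1, 6 of 7, had every MyTrMaSt + CBE library below every WT + CBE library, against 6.02% of all tested genes. Among CBE libraries with more than 1 Xist count, Gsdmd (-1.70, adjusted p = 0.0095) and Bcl2a1a (-2.39, adjusted p = 0.0069) passed as well. In that edgeR fit Mlkl did not pass (adjusted p = 0.0923), and its fold change is not given because the MyTrMaSt + CBE libraries kept had no Mlkl counts.

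The change with CBE in MyTrMaSt null mice minus that in WT mice, the genotype by treatment interaction, was called for none of the 4 tested members at an adjusted p below 0.05 (0.489% of all tested genes were called). Of these, 3 had an unadjusted p below 0.05 in the edgeR test, as did 1485 of the 11852 tested genes. In the edgeR fit the interaction was -1.36 on the log2 scale for Gsdmd (SE 0.51, adjusted p = 0.308) and -1.19 for Casp8 (SE 0.39, adjusted p = 0.243). For Bcl2a1a the adjusted p was 0.220, for Mlkl 0.133 on all listed genes (0.418% called), and for Ripk1 0.591. A larger change with CBE in WT than in MyTrMaSt null mice was therefore not established for any single member.

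Between the PBS groups no tested member was called, as against 0.16% of all tested genes, and none had an unadjusted p below 0.05 in the edgeR test. The log2 difference of MyTrMaSt + PBS from WT + PBS was 0.53 for Ripk1 (SE 0.54, adjusted p = 0.620), -0.40 for Gsdmd (SE 0.41, adjusted p = 0.626) and 0.27 for Casp8 (SE 0.31, adjusted p = 0.731). Bcl2a1a had 3 counts in all in MyTrMaSt + PBS and none in WT + PBS (adjusted p = 0.330), a separation of the groups also seen, as higher, for 10.1% of all tested genes. No WT + PBS library and every MyTrMaSt + PBS library had Xist counts, so that sex and genotype cannot be told apart here.

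Because the microglia markers differed between the CBE groups too, the members were also expressed per 1000 CPM of the 7 microglia markers, a measure chosen after the data were seen. On this scale Casp8 was 3.63 in MyTrMaSt + CBE and 3.52 in WT + CBE (exact permutation test, p = 0.786), and Ripk3 was 1.04 and 1.15 (exact p = 0.571). Gsdmd was 5.24 in MyTrMaSt + CBE and 9.20 in WT + CBE, Bcl2a1a 1.07 and 2.51, and Mlkl 0.0685 and 0.856. These 3 genes did not overlap between the CBE groups, where 1.17% of all tested genes were lower without overlap on this scale, with the smallest exact p that 5 and 3 libraries allow (0.0357, and 0.0833 after adjustment over 7 tests). Casp4 was 0.744 and 1.47 (exact p = 0.0714), and Ripk1 3.22 and 1.95 (exact p = 0.214). With C1qa and C1qb left out of the markers, Casp4 did not overlap either (3.94 and 9.58, exact p = 0.0357, and 0.0625 after adjustment over 7 tests). On that scale 1.56% of all tested genes were lower without overlap. Casp8 was 18.9 and 23.0 (exact p = 0.107) and Ripk3 5.39 and 7.53 (exact p = 0.107). Per level of the 7 markers, Ripk3 was at 1.07 to 1.24 and Mlkl at 0.640 to 1.24 in WT + CBE. Casp4 was at 1.03 to 2.24 and Bcl2a1a at 1.86 to 3.21. In WT + PBS Ripk3 was at no more than 0.624 and the others had no counts. However, 1 count in WT + PBS replicate 1 corresponds to 1.27 on this scale. For Ripk3, Mlkl and Casp4 these values therefore cannot show a higher level per marker after CBE. In MyTrMaSt null mice the same genes overlapped, with Ripk3 at 0.669 to 1.93 after PBS and 0.685 to 1.40 after CBE. Mlkl was at 0 to 1.93 and 0 to 0.342, Casp4 at 0 to 0.669 and 0.295 to 1.12, and Bcl2a1a at 0.669 to 0.967 and 0.281 to 1.53. On the scale of 7 markers, Gsdmd was 9.20 ± 0.887 (SD, n = 3) in WT + CBE and 7.16 to 16.5 in WT + PBS, and Casp8 was 3.52 ± 0.314 and 3.80 to 9.99. The libraries of these groups overlapped for both genes. For Gsdmd and Casp8 the MyTrMaSt groups did not overlap, with Gsdmd at 5.24 ± 2.11 (SD, n = 5) after CBE and 12.9 ± 0.787 (n = 3) after PBS, and Casp8 at 3.63 ± 0.574 and 11.7 ± 1.04. On the scale of 5 markers the WT means were in the other order, at 60.0 ± 4.95 after CBE and 43.5 ± 24.9 after PBS for Gsdmd and at 23.0 ± 1.70 and 21.1 ± 5.84 for Casp8, again with overlap. On that scale the MyTrMaSt groups overlapped for Gsdmd (27.1 ± 10.7 after CBE and 30.6 ± 3.44 after PBS) and not for Casp8 (18.9 ± 2.92 and 27.6 ± 2.28). No test of CBE against PBS was made on either scale. The share of all tested genes without overlap between CBE and PBS was not computed there, so these separations describe the members only.

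**Figure D2:**
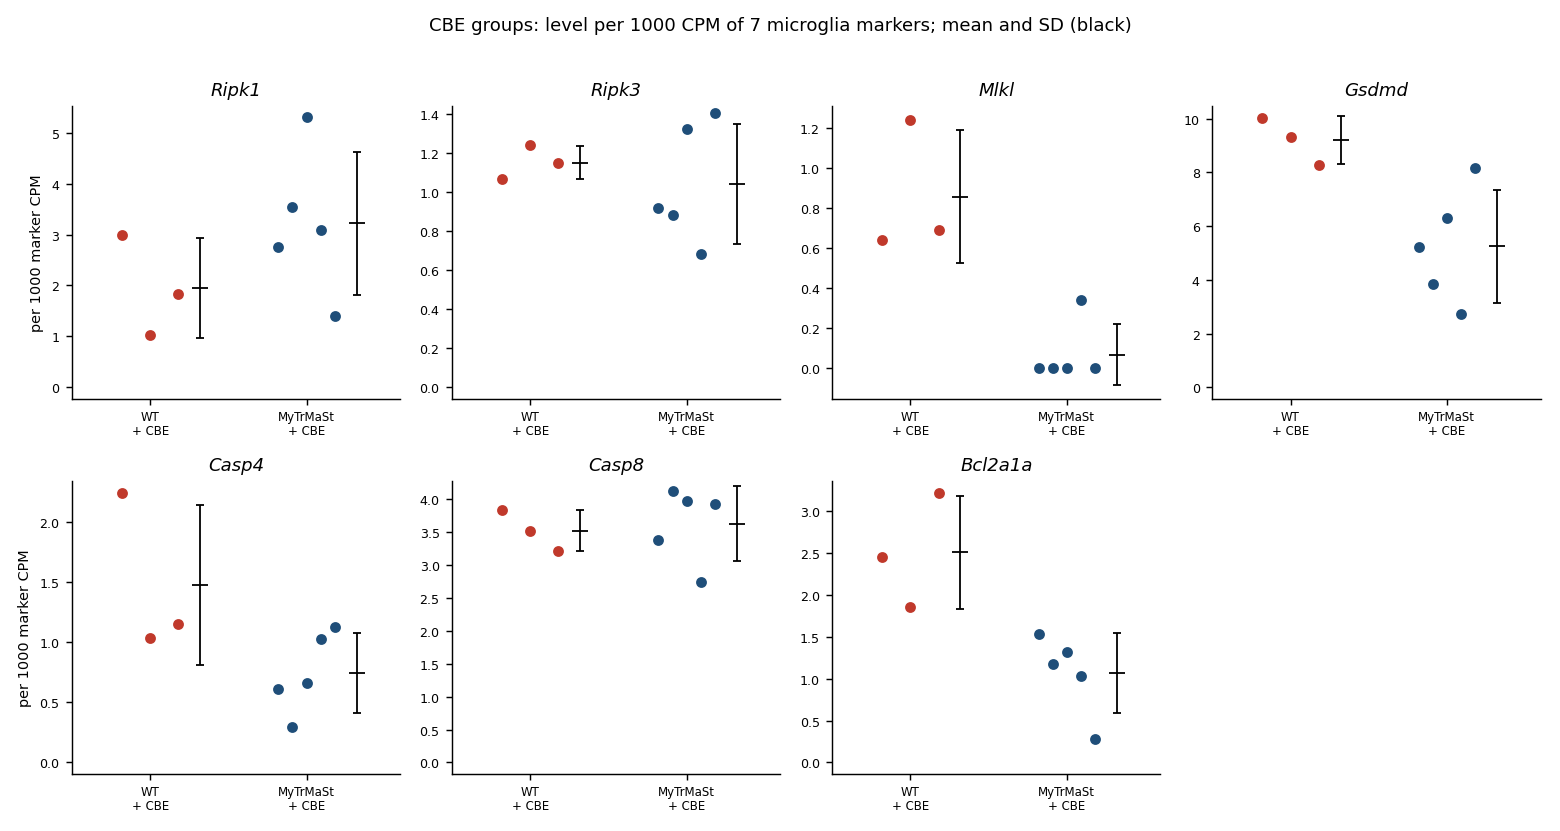
Level of each member per 1000 CPM of 7 microglia markers in the CBE groups, with 1 point per mouse and the mean and SD in black, on linear axes that differ between panels. Gsdmd, Bcl2a1a and Mlkl do not overlap between the genotypes, whereas Casp8 (means of 3.52 in WT and 3.63 in MyTrMaSt) and Ripk3 do.

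The other genes of these pathways were taken from a list of 58, of which 47 are listed and 41 passed the filter. Of the genes called in any comparison, Zbp1, Birc3 and Bik passed it only through CBE libraries, so that the counts of called genes below describe the list and support nothing beyond that. The medians below also rest in part on genes that passed only in this way. In WT mice 7 of the 41 were called with CBE, all higher, where 5.2% of all tested genes were called higher, and the median log2 fold change over the 41 was 0.25, compared with -0.02 over all tested genes. In MyTrMaSt null mice 2 were called higher and 1 lower, where 3.89% of all tested genes were called, with a median of 0.21 against 0.01 for all tested genes. Between the CBE groups 2 were called, both lower in MyTrMaSt null mice, where 1.93% of all tested genes were called lower (median -0.19, and 0.02 over all tested genes). Between the PBS groups and for the interaction none was called by edgeR, with 5 genes at an unadjusted p below 0.05 in each case. Over all 11852 tested genes, 1994 and 1485 were below that p. The WT count was 3 when only the WT libraries were fitted, 2 with the Xist covariate, 3 without any 1 of the WT + CBE libraries and 4 without WT + PBS replicate 2 or 3. The count between the CBE groups was 1 without WT + CBE replicate 3. Of the 7 calls in WT mice, those of Birc3, Cflar, Bcl2l11 and Bik were lost with only the WT libraries fitted (adjusted p from 0.0662 to 0.149), and those of Tnfaip3 (0.0656), Birc3 (0.0944), Cflar (0.113), Bcl2l11 (0.182) and Bik (0.0774) with the Xist covariate. Each of Birc3, Cflar, Bcl2l11 and Bik was also not called without any 1 of the WT + CBE libraries, and the calls of Zbp1 and Tnfrsf1a were lost in none of these fits.

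The necroptosis regulators held 5 of the 7 genes called in WT mice, of 12 tested, in the comparison that called 5.2% of all tested genes as higher. Zbp1, a sensor of Z-form nucleic acids that binds RIPK3, changed the most. It had 1, 0 and 1 counts in WT + PBS, 120, 58 and 64 counts in WT + CBE, 0, 1 and 2 counts in MyTrMaSt + PBS and 1, 0, 2, 7 and 0 counts in MyTrMaSt + CBE. Only the WT + CBE libraries, at 27.2 to 38.6 CPM, were above 3.45 CPM. The ratio of summed counts between the WT groups was 119 (95% counting interval 32.5 to 987, adjusted p = 4.10e-06 by the edgeR test), and after CBE the MyTrMaSt null mice had 0.0243 of the WT level (0.0115 to 0.0455, adjusted p = 1.06e-06). This ratio was 0.00874 without MyTrMaSt + CBE replicate 4, which holds 7 of the 10 counts of its group, and the ratio in WT mice was 201 without WT + PBS replicate 1 and 58.2 without replicate 2. The interaction for Zbp1 was not called (adjusted p = 0.307).

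Tnfrsf1a, which encodes TNF receptor 1, rose in both genotypes. The WT + PBS libraries held 27.1, 27.4 and 26.2 CPM of it and the WT + CBE libraries 140, 122 and 114 CPM (log2 fold change 2.22, SE 0.22, adjusted p = 1.13e-06). In MyTrMaSt null mice it had 35.9, 32.2 and 32.8 CPM with PBS and 85.3, 89.4, 85.9, 154.1 and 96.3 CPM with CBE (log2 fold change 1.60, SE 0.19, adjusted p = 2.99e-05). The CBE groups overlapped and their difference did not pass (-0.30, SE 0.18, adjusted p = 0.811).

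The remaining called regulators of this group act to restrain death signalling. Tnfaip3 encodes A20, a ubiquitin-editing inhibitor of TNF signalling, and went from 4.14 to 5.48 CPM after PBS to 11.6 to 15.1 CPM after CBE in WT mice, with 3.11 to 6.34 and 3.90 to 7.14 CPM in MyTrMaSt null mice. It rose with CBE in WT mice (log2 fold change 1.42, SE 0.30, adjusted p = 0.00476), was lower in MyTrMaSt + CBE than in WT + CBE (-1.24, SE 0.25, adjusted p = 0.00794, and 0.0520 without WT + CBE replicate 3), and in MyTrMaSt null mice its value with CBE was 0.21 on that scale (SE 0.28, adjusted p = 0.702). Birc3, a ubiquitin ligase of the TNF receptor complex, rose in WT mice from 0 to 2.76 CPM to 7.27 to 9.39 CPM (log2 fold change 1.99, SE 0.55, adjusted p = 0.0264). Cflar, which encodes the caspase 8 inhibitor cFLIP, rose in WT mice from 4.51 to 8.29 CPM to 11.4 to 18.9 CPM (ratio of summed counts 2.04, 95% counting interval 1.46 to 2.87, adjusted p = 0.0477), and was not called in the edgeR fit to all listed genes (adjusted p = 0.0504). In MyTrMaSt null mice the fitted change on the log2 scale was 0.82 for Birc3 (SE 0.52, adjusted p = 0.361) and 0.63 for Cflar (SE 0.28, adjusted p = 0.183).

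**Figure D3:**
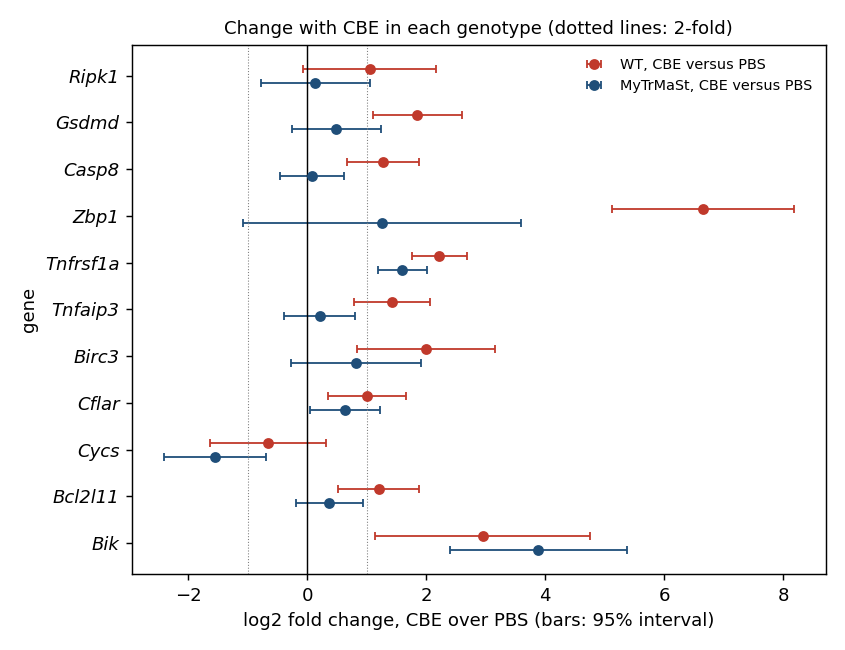
Log2 fold change of CBE over PBS in WT mice (red) and MyTrMaSt null mice (blue) for 3 tested members and the 8 other cell death genes called in any comparison, with 95% intervals and dotted lines at 2-fold. Bcl2a1a is left out because it had no counts in WT + PBS. Gsdmd (1.85 in WT and 0.49 in MyTrMaSt) and Zbp1 (6.65 and 1.26) lie farther right in WT, whereas Tnfrsf1a and Bik lie right of 0 in both.

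Of the pyroptosis and inflammasome genes 5 of 14 were tested and none was called in any comparison, too few to set against the 6.4%, 3.89% and 2.01% of all tested genes called in WT mice, in MyTrMaSt null mice and between the CBE groups. Nlrp3, the sensor of the canonical inflammasome, did not pass the filter and is named after its values were seen. It had 0, 0 and 1 counts in WT + PBS, 15, 7 and 3 in WT + CBE, then 6, 2 and 1 in MyTrMaSt + PBS and 8, 6, 5, 9 and 7 in MyTrMaSt + CBE, and its change in WT mice passed in the fit to all listed genes (adjusted p = 0.00548). Of the death receptor and caspase genes 10 of 13 were tested. The only call among them was Cycs, which encodes cytochrome c, an activator of the apoptosome. Cycs had 3.87 to 6.34 CPM in MyTrMaSt + PBS and 0.985 to 2.34 CPM in MyTrMaSt + CBE (log2 fold change -1.55, SE 0.41, adjusted p = 0.0252), and this call was lost without MyTrMaSt + PBS replicate 1 or 2 or MyTrMaSt + CBE replicate 2, 3 or 4 (adjusted p from 0.0512 to 0.133) and with the replicate block (0.155). In WT mice its value was -0.66 (SE 0.46, adjusted p = 0.424).

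Of the BCL2 family 14 of 18 genes were tested, of which 2 were called higher in WT mice and 1 in MyTrMaSt null mice, where 5.2% of all tested genes were called higher in WT mice and 3.89% in either direction in MyTrMaSt null mice. The called genes were Bcl2l11, which encodes the proapoptotic protein BIM, and Bik, another proapoptotic member with only a BH3 domain. Bcl2l11 ranged from 2.71 to 12.2 CPM in WT + PBS and from 17.4 to 18.1 CPM in WT + CBE (log2 fold change 1.21, SE 0.32, adjusted p = 0.0226), and 10.3 to 11.3 and 11.4 to 19.1 CPM in the MyTrMaSt groups (0.37, SE 0.27, adjusted p = 0.432). Bik had 1, 0 and 1 counts in WT + PBS, 7, 4 and 7 in WT + CBE, then 1, 1 and 0 in MyTrMaSt + PBS and 14, 5, 9, 11 and 7 in MyTrMaSt + CBE. Its ratio of summed counts was 8.84 in WT mice (95% counting interval 2.12 to 78.5, adjusted p = 0.0338, and 14.9 or 4.33 without WT + PBS replicate 1 or 2) and 17.8 in MyTrMaSt null mice (4.66 to 152, adjusted p = 0.00195). Bcl2a1b, a copy of Bcl2a1a that did not pass the filter and was named after its values were seen, had 0, 1 and 1 counts in WT + PBS, 11, 8 and 11 in WT + CBE, then 1, 0 and 1 in MyTrMaSt + PBS and 3, 4, 5, 6 and 5 in MyTrMaSt + CBE. Its change passed in the fit to all listed genes in WT mice (adjusted p = 0.00161) and in MyTrMaSt null mice (adjusted p = 0.0182). Of 8 promoter windows of 6 of these other called genes, 2 held 1 match each, a response element core 6 bases after the start of Cflar and a gamma-activated site 244 bases before that of Tnfrsf1a.

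**Figure D4:**
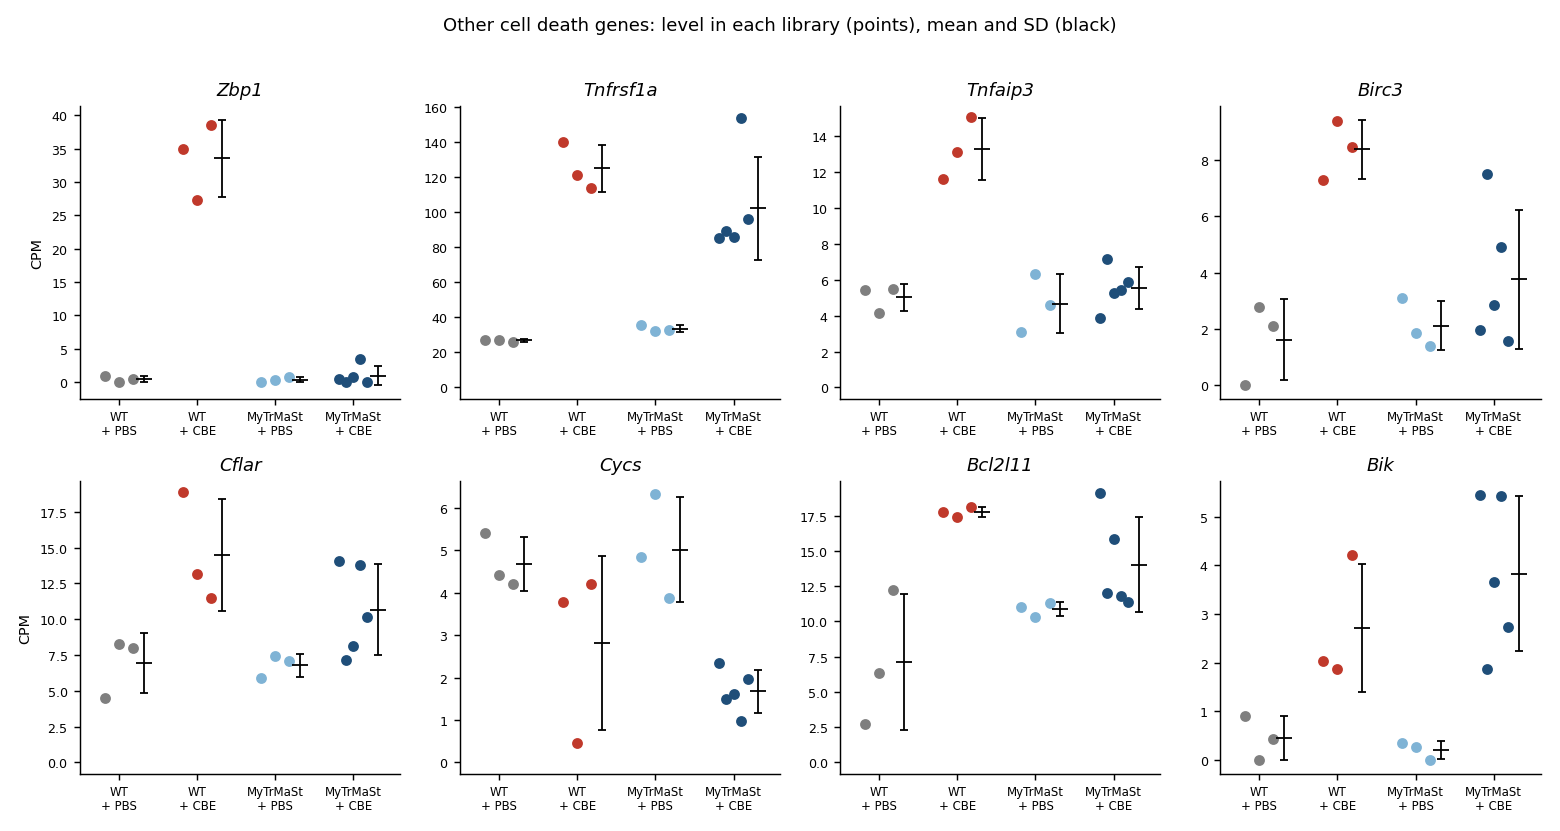
Level of the 8 other cell death genes called in any comparison, in CPM on linear axes that differ between panels, with 1 point per mouse and the mean and SD of each group in black. Zbp1 is at 27.2 to 38.6 CPM in WT + CBE and at no more than 3.45 CPM elsewhere, whereas Tnfrsf1a and Bik are higher with CBE in both genotypes and Cycs is lower with CBE in MyTrMaSt null mice.

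Across the 14 libraries, the genes whose log2 CPM followed each tested member most closely were, by Pearson's r, Dhx58 (0.961), Psmb9 (0.933) and Rapsn (0.921) for Gsdmd. They were Cp (0.946), Ifit2 (0.941) and Irgm1 (0.923) for Casp8, and Il10rb (0.943), Ostf1 (0.940) and Cd22 (0.939) for Bcl2a1a. For Ripk1 they were B3glct (0.874), D3Ertd254e (0.824) and Nhlrc2 (0.817). Among the 7 members the lowest r was 0.06, between Ripk1 and Gsdmd, and the highest 0.892, between Ripk3 and Casp4. All points share the 4 groups and the depth of their library, so these values describe the libraries and no test was made.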

How the data were processed

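MARSseq libraries, which read the 3′ ends of transcripts, were made by the authors from the brain of each mouse, sequenced on a NextSeq-500, and mapped to mm10 with hisat, keeping uniquely mapping reads. The submitters' processing notes also name cutadapt and HTSeq. The authors deposited raw counts of reads for each gene, and 0 columns of other samples were left unused. The annotation and the use of strand were not given in the sources used here. The authors' normalized values and fold changes, with their p values, were not used. Library totals are given with the results, and a gene with 10 counts or fewer is imprecise in any library.

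Tests were run with edgeR 4.0.16 in R 4.3.3 (filterByExpr, TMM, quasi-likelihood F test, 1 model of 4 group means over 14 libraries, Benjamini-Hochberg). DESeq2 1.42.0, RLE factors, other filters, the compared groups alone, a replicate block, a covariate for Xist, and leaving out each library were the alternatives. The script was tested on simulated data. Named genes are the 8 members, list genes called in any comparison, and the 3 nearest genes of each tested member, by correlation of log2 CPM with 0.5 added. Nlrp3 and Bcl2a1b were named outside this rule. 1 gene of the microglia marker list is not reported here. Members and lists were chosen with earlier results of these data known. Same-numbered libraries showed little shared deviation (18 pairs, r from -0.18 to 0.17, with 3 above 0.1). This cannot exclude that the numbers pair mice, and the main model treats the libraries as unpaired. Whether replicates came from separate litters was not given, and p values measure the spread between these mice.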

Additional observations from a re-analysis of the deposited data

Results flagged for a closer look

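In MyTrMaSt + CBE, the group of 5 libraries, 3 of the 15 genes looked at had a highest library that stood far from the others by Dixon's test, which by chance flags about 1 in 20 groups. Mlkl reached 0.492 CPM in replicate 4, which is 1 count, and 0 in the other 4 libraries, a pattern that this test flags for any gene with counts in 1 library alone. Zbp1 reached 3.45 CPM (7 counts) in replicate 4, against 0 to 2 counts in the others. Tnfrsf1a reached 154.1 CPM in replicate 4, against 85.3 to 96.3 CPM in the others. Replicate 4 was also the library of its group without Xist counts, and its part in these values was not tested.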

How the results depend on the processing

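In WT mice, the count of members called with CBE moved from 3 to 1 with Xist as a covariate, to 1 when only the WT + CBE library with 1 Xist count was compared (chosen after the data were seen), to 6 without the filter, and to 0 when 10 counts were required in every library, which leaves few members to test. Left-out libraries gave 2 to 3, and with only the WT groups in the edgeR fit the call of Casp8 was lost (adjusted p = 0.0703). In MyTrMaSt null mice the count was 0 to 1 with libraries left out. Between the CBE groups it moved from 2 to 0 with 10 counts required, and the highest count over the alternatives was 3. For the list of other cell death genes, the WT count moved from 7 to 3 with only the WT groups fitted, 2 with the Xist covariate, 1 with 10 counts required and 2 with the library of 1 Xist count, and left-out libraries gave 3 to 7. The MyTrMaSt count moved from 3 to 1 with 10 counts required (2 to 4 with libraries left out). Between the CBE groups it moved from 2 to 0 with 10 counts required and to 1 among libraries with Xist (1 to 2 with libraries left out), and between the PBS groups left-out libraries gave 0 to 1. The causes were not tested, other than the smaller number of genes and libraries.

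The sign of Ripk1 changed in WT mice with the library of 1 Xist count (-0.14), in MyTrMaSt null mice without MyTrMaSt + PBS replicate 1 (-0.14) or MyTrMaSt + CBE replicate 3 (-0.08), with a range of -0.14 to 0.48 over left-out libraries, between the CBE groups without WT + CBE replicate 1 (0.26, range -0.71 to 0.26) and between the PBS groups with the Xist covariate (-0.16). That of Casp8 changed between the PBS groups with the Xist covariate (-0.037). None of these passed. With the replicate block, the members called were 3, 0, 2, 0 and 0 in the WT, MyTrMaSt, CBE, PBS and interaction comparisons, and Mlkl between the CBE groups was no longer called (-5.54, adjusted p = 0.0999), nor were Cflar (0.93, adjusted p = 0.107) and Bik (2.78, adjusted p = 0.0641) in WT mice or Cycs in MyTrMaSt null mice (-1.48, adjusted p = 0.155).

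Over all tested genes the counts of calls were 759 in WT mice (261 to 1255 over the alternatives), 461 in MyTrMaSt null mice (166 to 919), 238 between the CBE groups (47 to 301), 19 between the PBS groups (3 to 302) and 58 for the interaction (9 to 133).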
